A study of Mus musculus with 16 samples.

Results

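The C/EBP transcription factors and their Tribbles regulators were followed as 7 genes, chosen by symbol from the 54347 genes of the deposited count table: *Cebpa*, *Cebpb*, *Cebpd*, *Cebpe*, *Cebpg*, *Trib1* and *Trib2*. Bone marrow progenitors were sorted from C57BL/6 wild-type (WT) mice and from littermates that lack the upstream regulatory element (URE) of *Spi1*, the gene of the transcription factor PU.1, written UREΔ. The UREΔ deletion was present in every cell of the animal, and mice of this strain develop acute myeloid leukemia later in life, so that the libraries came from preleukemic animals 8 to 12 weeks old. The 16 libraries fell into 4 groups of 4: WT LSKs, UREΔ LSKs, WT GMPs and UREΔ GMPs. The labels do not state whether LSKs and GMPs of the same replicate number were sorted from the same mouse, and same-numbered LSK and GMP libraries deviated together from their group means (r = 0.44 to 0.77). LSKs are lineage-negative, Sca-1-positive and c-Kit-positive cells that include the hematopoietic stem cells, and GMPs are granulocyte-monocyte progenitors, gated as c-Kit-positive, Sca-1-negative cells with Fc gamma receptors. The comparison of UREΔ with WT asked how low PU.1 goes together with the C/EBP program in each compartment, and the comparison of GMPs with LSKs followed the same genes along myeloid maturation.

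C/EBP proteins bind DNA as dimers through a basic leucine zipper. C/EBPα is needed to form GMPs from earlier progenitors and holds back proliferation, C/EBPε drives the making of late neutrophil granules, C/EBPβ takes over in emergency granulopoiesis and in inflammation, C/EBPδ acts in acute phase and inflammatory responses, and C/EBPγ lacks a strong activation domain and pairs with the other members and with ATF4. Tribbles proteins are pseudokinases that bridge the ubiquitin ligase COP1 to C/EBPα and thereby cause its degradation, and forced expression of *Trib1* or *Trib2* in marrow cells is known to cause acute myeloid leukemia in mice. RNA levels do not report that step of protein degradation.

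All 7 genes were identified in GENCODE M21 on mouse build GRCm38.p6 as protein-coding. *Cebpa* (ENSMUSG00000034957) is a single exon on the plus strand at chr7:35119293-35121928, and its neighbor *Cebpg* (ENSMUSG00000056216) is transcribed away from it on the minus strand at chr7:35046422-35056573, with 62719 bases between the genes. *Cebpb* lies at chr2:167688915-167690418, *Cebpd* at chr16:15887286-15891031, *Cebpe* at chr14:54710360-54712174, *Trib1* at chr15:59648350-59657099 and *Trib2* at chr12:15791727-15816922. A promoter window from RefSeq, 250 bases before to 50 bases after the gene start on GRCm38.p6, was matched for 4 of the 7 genes, *Cebpa*, *Cebpb*, *Cebpg* and *Trib2*. The windows of *Cebpa* and *Cebpg* are printed 5′ to 3′ on the strand of the gene, since *Cebpa* was called between cell types in both genotypes while its chromosome 7 neighbor *Cebpg* was called in no comparison. Capitals mark TATAAA in *Cebpa* and CCAAT, read on the opposite strand as ATTGG, in *Cebpg*.

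Cebpa, chr7:35119043-35119342, plus strand: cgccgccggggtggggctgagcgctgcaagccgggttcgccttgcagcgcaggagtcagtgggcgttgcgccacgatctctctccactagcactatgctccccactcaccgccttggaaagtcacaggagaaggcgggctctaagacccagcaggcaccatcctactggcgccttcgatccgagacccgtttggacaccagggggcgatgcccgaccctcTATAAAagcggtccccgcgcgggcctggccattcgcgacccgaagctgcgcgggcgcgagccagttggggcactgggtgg

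Cebpg, chr7:35056517-35056816, minus strand: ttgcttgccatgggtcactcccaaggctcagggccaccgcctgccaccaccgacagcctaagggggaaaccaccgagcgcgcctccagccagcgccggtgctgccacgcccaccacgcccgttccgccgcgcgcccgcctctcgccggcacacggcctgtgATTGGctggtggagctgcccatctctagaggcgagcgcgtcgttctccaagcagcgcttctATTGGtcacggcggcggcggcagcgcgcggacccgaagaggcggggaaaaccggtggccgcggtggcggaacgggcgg

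TATAAA started 30 bases before the *Cebpa* start (position -30), and CCAAT was matched at -89 and -28 of *Cebpg*. Both strands were searched, without overlaps between motifs. Over all 32851 windows of this length, TATAAA was present in 13.6% and CCAAT in 37.4%. The C/EBP core TTGCNNAA, present in 10.8% of all windows, and the PU.1 site GAGGAAGT, present in 3.2%, were not among the letters of the 4 matched windows. G and C made up 67.3% of the *Cebpa* window and 71.7% of the *Cebpg* window, against a median of 52.7%.

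Libraries held 20028302 to 29128858 counts. *Spi1*, whose enhancer was deleted, was 41.1-fold lower in UREΔ than in WT LSKs (3.02 ± 1.42 against 124 ± 39.99 CPM, that is counts scaled to library size, SD, n = 4) and 6.56-fold lower in UREΔ GMPs (21.28 ± 5.96 against 139.5 ± 40.5 CPM). LSK markers such as *Hlf* and *Ly6a* summed to 2234 to 3797 CPM in LSKs and 474.5 to 1504 CPM in GMPs. *Kit*, on which both cell types were sorted, was the largest part of this sum (1224 CPM in WT LSKs and 704.1 CPM in WT GMPs, by the means). It was not called between cell types, whereas 7 of the 8 LSK markers were called lower in GMPs of each genotype (15.8% of all genes in WT and 12.6% in UREΔ). GMP markers such as *Mpo* summed to 692.3 to 1612 CPM in LSKs and 55000 to 160200 CPM in GMPs. By the chi-square of their counts, replicates 1 and 4 were the most alike pair of libraries in every group. Replicate 2 was nearer to replicate 3 than to 1 or 4 in each group but UREΔ GMPs, where it was nearer to replicate 4 (96.9 against 111 per degree of freedom). Y-linked transcripts were at 213 to 359 CPM in replicate 1 of both genotypes and in WT replicates 2 and 3, and at 0.364 CPM or less in the other libraries, so that the genotypes were matched for sex only in replicates 1 and 4. Results on the members were therefore recomputed within each of these pairs of replicates. Of the summed marker lists of other cell types, the sum of neutrophil markers was higher in UREΔ cells without overlap. It was at 24.6 to 107.5 against 156.9 to 263.8 summed CPM in LSKs and 53.9 to 96.4 against 175.5 to 736.7 in GMPs. This sum was mostly the granule genes *Ngp* and *Camp* and does not give the stage of the cells. Summed B-cell markers were lower without overlap, at 58.5 to 84.5 against 25.0 to 36.9 in LSKs and 62.2 to 90.4 against 10.9 to 26.2 in GMPs. Most of this sum was *Cd79b* (66.1 against 29.6 CPM in LSKs and 75.7 against 15.3 CPM in GMPs, by the means). *Vpreb1* was at 1.35 and 2.73 CPM in GMPs, higher in UREΔ without overlap, and *Pax5* was at 0 in GMPs of both genotypes. Monocyte markers were lower without overlap in LSKs, at 58.8 to 112.7 against 13.4 to 31.9, and overlapped in GMPs, at 1668 to 2190 against 388.9 to 1880. Dendritic cell markers overlapped in LSKs (235.8 to 609.3 against 82.3 to 277.6) and were lower without overlap in GMPs (199.3 to 301.6 against 15.8 to 49.5). The T-cell list overlapped in LSKs (52.2 to 111.7 against 63.0 to 80.0) and summed to 8.40 to 13.4 against 86.6 to 222.9 in GMPs, where *Trat1* alone went from 0.734 to 149.1 CPM while *Lck* was at 9.55 and 16.5 CPM (edgeR adjusted p = 0.289) and *Cd3e* was at 0 in both genotypes. In LSKs *Trat1* was called higher too, from 1.32 to 26.7 CPM (log2 fold change 4.30, edgeR adjusted p = 0.000519). *Lck* went the other way there, from 79.7 to 44.3 CPM (-0.88, edgeR adjusted p = 0.076). Summed GMP markers were higher in UREΔ GMPs without overlap (55000 to 70480 against 73700 to 160200). Most of this sum was *Mpo* (50490 against 91750 CPM by the means, edgeR adjusted p = 0.118). Of the 6 markers 1 was called higher, *Fcgr3* (log2 fold change 1.34), where 4.67% of all genes were. *Prtn3* was at 0.12, and *Fcgr2b* went the other way without a call, from 89.2 to 51.8 CPM (-0.80, edgeR adjusted p = 0.118). The sums of erythroid, megakaryocyte, basophil and mast cell and LSK markers overlapped between genotypes in both compartments, but single genes of these lists were called. In LSKs *Cpa3* (log2 fold change 1.89), *Mcpt8* (2.11) and *Itga2b* (1.88) were called higher and *Hbb-bt* (-4.54) lower, and in GMPs *Mcpt8* (1.48) was called higher and *Prss34* (-2.42) and *Ms4a2* (-2.92) lower.

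Among the 7 genes, the genotype called *Trib1* alone in the main fits, in both compartments, while the cell type called *Trib1*, *Cebpa*, *Cebpd* and *Cebpe*. Alternative fits given below also called *Cebpe* between genotypes, in GMPs with the replicate number as a block and in LSKs with all 16 libraries fitted together. A gene was called when its adjusted p was under 0.05 and its fold change above 1.5 in edgeR's quasi-likelihood test over all genes. Between UREΔ and WT LSKs, 1 of the 6 members that passed the filter on low counts was called, where 6.14% of 15154 genes were called. Between UREΔ and WT GMPs it was 1 of 7, against 8.30% of 13829 genes. Between GMPs and LSKs it was 4 of 6 in WT, against 27.3% of 14767 genes, and 4 of 7 in UREΔ, against 21.8% of 14395 genes. *Cebpb* was the member filtered out of the UREΔ-WT comparison in LSKs and of the WT comparison of cell types. No member was called in the genotype by cell type interaction (0 of 7 by edgeR and 0 of 7 by DESeq2, 1 of 7 at an unadjusted p under 0.05), in which 1.22% of 15935 genes were called (0.866% higher and 0.351% lower).

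**Figure D1:**
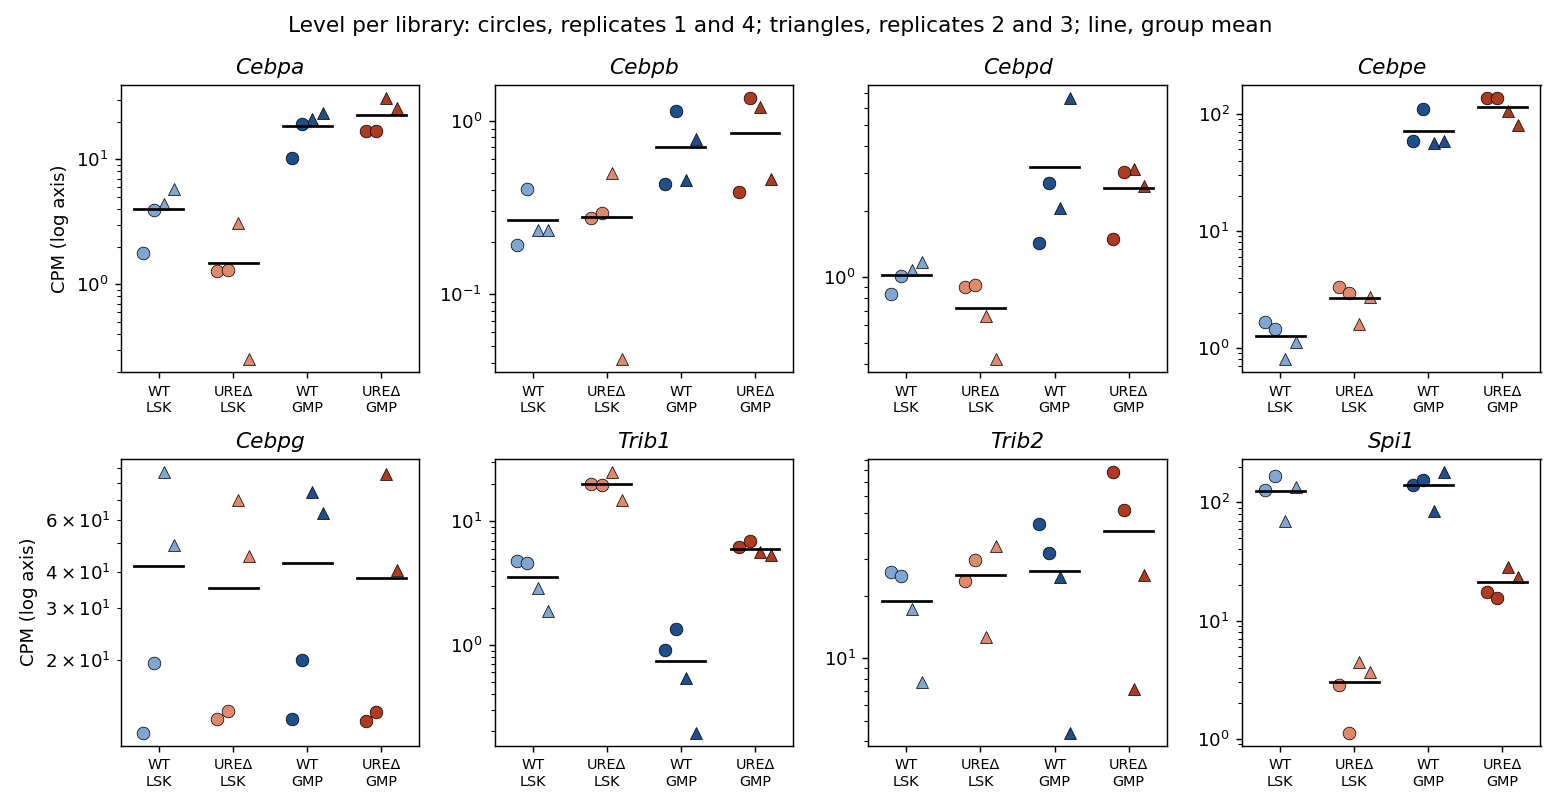
Level of each C/EBP and Tribbles gene and of *Spi1* in every library (CPM, log axis, n = 4 libraries per group). Circles are replicates 1 and 4, triangles replicates 2 and 3 and lines group means: *Trib1* separates UREΔ from WT in both cell types, *Cebpe* and *Cebpa* separate GMPs from LSKs, and *Cebpg* separates triangles (40.5 to 87.3 CPM) from circles (11.4 to 20.1 CPM) in every group.

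*Trib1*, which directs C/EBPα to COP1, was overexpressed in UREΔ cells. In LSKs it was at 4.801, 2.92, 1.87 and 4.59 CPM in WT replicates 1 to 4 and at 19.99, 25.2, 15.01 and 19.8 CPM in UREΔ replicates 1 to 4. The lowest UREΔ library was thus above the highest WT library, and the group means were 5.65-fold apart (log2 fold change 2.47, SE 0.34, edgeR adjusted p = 0.00279, higher in 4 of 4 pairs). In GMPs it was at 0.91, 0.54, 0.20 and 1.35 CPM in WT, from 4 to 26 counts a library, and at 6.17, 5.64, 5.38 and 6.92 CPM in UREΔ replicates 1 to 4. These groups did not overlap either, and the means were 8.06-fold apart (log2 fold change 3.01, SE 0.49, edgeR adjusted p = 0.00584, higher in 4 of 4 pairs). Groups without overlap were found for 12.6% of genes in LSKs and 14.8% in GMPs. The 2 genotype effects did not differ detectably (interaction 0.51, SE 0.57, adjusted p = 0.87).

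*Trib1* also fell from LSKs to GMPs, by 2.25 on the log2 scale in WT (SE 0.55, edgeR adjusted p = 0.0147) and by 1.77 in UREΔ cells (SE 0.23, edgeR adjusted p = 0.000913), in 4 of 4 pairs each. The order of its levels was therefore UREΔ LSKs (20.01 ± 4.16 CPM, SD, n = 4), UREΔ GMPs (6.03 ± 0.68), WT LSKs (3.55 ± 1.398) and WT GMPs (0.75 ± 0.49), and no neighbors in this order overlapped. UREΔ GMPs thus kept more *Trib1* RNA than WT LSKs, a difference of both genotype and cell type that was not tested. Within replicates 2 and 3 alone the GMP genotype effect was 3.85 on the log2 scale with an edgeR adjusted p of 0.080, and the cell type effects were -2.60 in WT (0.053) and -1.86 in UREΔ (0.063). Within replicates 1 and 4, matched for sex, it was 2.52 (edgeR adjusted p = 0.0101) and in LSKs 2.05 (0.00854). Less RNA per cell and fewer cells that express a gene cannot be told apart in such bulk libraries. Summed neutrophil markers and the basophil marker *Mcpt8* were also higher in UREΔ cells of both compartments without overlap, in cells sorted as c-Kit-positive and as negative for Gr1, a neutrophil surface antigen. The basophil and mast cell list did not move together. *Cpa3* was called higher in LSKs (1.89), *Prss34* (-2.42) and *Ms4a2* (-2.92) were called lower in GMPs, and the list sums overlapped in both compartments. The part of these cell types in the *Trib1* difference was not tested.

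*Trib2*, the other Tribbles gene with COP1-binding and leukemogenic activity, was not called in any of the 4 comparisons and varied within groups instead. It was at 26.0, 17.2, 7.68 and 25.0 CPM in WT LSKs, 23.5, 12.6, 34.5 and 29.6 in UREΔ LSKs, 44.4, 24.6, 4.40 and 32.1 in WT GMPs and 78.8, 7.10, 25.3 and 51.7 in UREΔ GMPs. All 4 groups overlapped, and group membership took up 7.33% of the variance of its log2 CPM, against 91.2% for *Trib1*. The genotype effects were 0.38 in LSKs (SE 0.41, edgeR adjusted p = 0.834) and 0.63 in GMPs (SE 0.76, edgeR adjusted p = 0.733). *Trib2* averaged 38.9 CPM over replicates 1 and 4 and 16.7 CPM over replicates 2 and 3, and within replicates 1 and 4 alone it was called as higher in UREΔ GMPs than in UREΔ LSKs (log2 fold change 1.30, edgeR adjusted p = 0.0111).

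Of the 12 genes listed as partners of Tribbles proteins, 1 was called between genotypes in each compartment, *Trib3*, a share near the 6.14% of all genes called in LSKs and the 8.30% in GMPs. This further family member, a stress-induced gene whose product binds AKT and does not degrade C/EBPα, rose from 20.69 ± 6.75 to 58.0 ± 10.56 CPM in LSKs (log2 fold change 1.46, SE 0.27, edgeR adjusted p = 0.0107) and from 0.394 ± 0.323 to 2.25 ± 0.808 CPM in GMPs (2.49, SE 0.64, edgeR adjusted p = 0.0449). It fell from LSKs to GMPs in WT (log2 fold change -5.70, edgeR adjusted p = 0.000284) and in UREΔ (-4.72, 6.32e-05). *Trib3* and *Trib1* thus had the same order of genotypes in each cell type, but UREΔ GMPs stayed below WT LSKs for *Trib3* and above them for *Trib1*. The *Trib3* call in LSKs did not hold within replicates 1 and 4 (1.28, edgeR adjusted p = 0.087), and that in GMPs was lost in 5 of 8 fits that left out a library. The ligase subunits *Cop1*, *Det1*, *Dda1*, *Ddb1*, *Cul4a*, *Cul4b* and *Rbx1* and the kinases *Map2k1*, *Map2k4*, *Map2k7* and *Akt1* were not called in any comparison. *Cop1* itself was at 19.35 ± 5.05 CPM in WT and 12.66 ± 4.26 CPM in UREΔ LSKs (log2 fold change -0.64, SE 0.31, edgeR adjusted p = 0.386) and at 20.32 ± 4.45 and 14.32 ± 6.31 CPM in GMPs. The median log2 fold change of the list was 0.13 in both compartments, against 0.00 for all genes in LSKs and 0.01 in GMPs.

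*Cebpa* depended on the cell type. Its level was 1.79, 4.42, 5.77 and 3.90 CPM in WT LSKs and 10.3, 21.1, 23.6 and 19.1 CPM in WT GMPs, a 4.66-fold difference of the means (log2 fold change 2.21, SE 0.40, edgeR adjusted p = 0.00334). In UREΔ mice it was 1.29, 3.11, 0.25 and 1.29 CPM in LSKs and 16.9, 31.0, 25.8 and 16.9 CPM in GMPs, a 15.2-fold difference (log2 fold change 3.88, SE 0.62, edgeR adjusted p = 0.00231). GMPs were above LSKs in 4 of 4 pairs of either genotype, without overlap, which 31.4% of genes showed in WT and 26.6% in UREΔ.

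Between genotypes *Cebpa* was not called. In LSKs it was lower in UREΔ in 4 of 4 pairs, with means of 1.49 ± 1.19 against 3.97 ± 1.65 CPM (SD, n = 4), but the groups overlapped and the log2 fold change of -1.44 had an SE of 0.65 (edgeR adjusted p = 0.336). UREΔ LSK replicate 3 held 6 counts of the gene, and without it the log2 fold change was -1.09 (edgeR adjusted p = 0.327). Without a library it ranged from that value to -2.10 (without UREΔ LSK replicate 2, edgeR adjusted p = 0.128), and it was not called in any of these 8 fits. In GMPs the means were 22.63 ± 6.95 in UREΔ against 18.52 ± 5.79 CPM in WT (log2 fold change 0.28, SE 0.31, edgeR adjusted p = 0.716). The interaction was 1.69 on the log2 scale, SE 0.73, with an unadjusted p of 0.0334 and an edgeR adjusted p of 0.361. The order of levels was UREΔ GMPs, WT GMPs, WT LSKs and UREΔ LSKs, and the groups overlapped between genotypes within each cell type but not between WT GMPs and WT LSKs.

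*Cebpe* had the widest range of all members. It was at 1.66, 0.80, 1.13 and 1.45 CPM in WT LSKs and at 58.6, 56.7, 58.3 and 111.2 CPM in WT GMPs, a 56.4-fold difference of the means (log2 fold change 5.80, SE 0.37, edgeR adjusted p = 2.37e-05). In UREΔ it went from 3.35, 1.59, 2.73 and 2.92 CPM in LSKs to 136, 106, 81.2 and 137 CPM in GMPs, a 43.5-fold difference (log2 fold change 5.39, SE 0.32, edgeR adjusted p = 2.80e-05). Groups took up 98.3% of the variance of its log2 CPM, the highest share of the 7.

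UREΔ libraries had more *Cebpe* than the WT library of the same number in 4 of 4 pairs in both compartments, though the groups overlapped. The means were 2.10-fold apart in LSKs (log2 fold change 1.03, SE 0.40, edgeR adjusted p = 0.222) and 1.62-fold apart in GMPs (0.69, SE 0.27, edgeR adjusted p = 0.179). With the replicate number as a block, *Cebpe* was called in GMPs (0.71, SE 0.17, edgeR adjusted p = 0.0250) and not in LSKs. It was also called in GMPs without WT GMP replicate 4, the library at 111.2 CPM (0.97, edgeR adjusted p = 0.0443), and in LSKs when all 16 libraries were fitted together (1.06, edgeR adjusted p = 0.0496). The interaction was -0.37 (SE 0.42, adjusted p = 0.871), so that no difference between the compartments in the effect of the genotype was detected. Summed neutrophil markers, whose range is given above, were higher in the same UREΔ groups, with 1 of 5 tested called higher in LSKs (2.38% of all genes), and 2 called higher and 1 lower of 6 tested in GMPs (4.67% and 3.63% of all genes). The genes of this list did not move together. *Cxcr2* was at 3.12 CPM in WT and 1.38 CPM in UREΔ LSKs, lower without overlap (log2 fold change -1.20, edgeR adjusted p = 0.187), and at 16.9 and 14.01 CPM in GMPs, *Mmp8* fell in GMPs (-3.04, edgeR adjusted p = 0.013), and *Ltf* was at 10.1 and 12.3 CPM in LSKs. *Ngp* was at 27.4 CPM in WT and 211.9 CPM in UREΔ GMPs and *Camp* at 20.6 and 161.2 CPM by the means, whereas *Retnlg*, *Mmp9* and *Il1b* stayed at or below 1.85, 0.89 and 1.18 CPM in every library. *Retnlg* was nevertheless called higher in UREΔ GMPs without overlap, from 0.0696 ± 0.0925 to 1.01 ± 0.0831 CPM (log2 fold change 3.74, SE 0.75, edgeR adjusted p = 0.0148). The part of neutrophil-lineage cells of any stage in the *Cebpe* values was not tested.

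**Figure D2:**
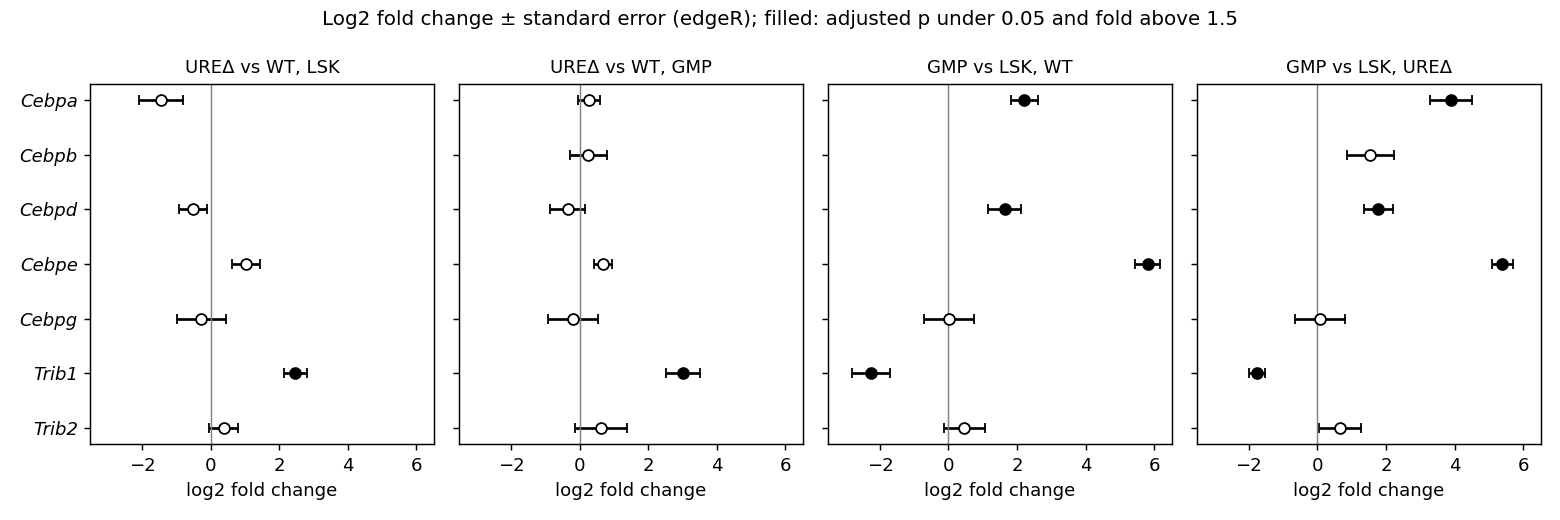
Log2 fold change with its standard error for each C/EBP and Tribbles gene in the 4 comparisons (edgeR, 4 libraries a group), filled where the adjusted p is under 0.05 and the fold above 1.5. *Trib1* is the filled point of both genotype panels (2.47 and 3.01) and *Cebpe* has the highest value of both cell type panels (5.80 and 5.39). *Cebpb* has no point where it was filtered out.

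*Cebpd* and *Cebpb* were at low levels throughout. *Cebpd* was at 0.83, 1.07, 1.17 and 1.01 CPM in WT LSKs, 0.90, 0.66, 0.42 and 0.92 in UREΔ LSKs, 1.43, 2.08, 6.64 and 2.70 in WT GMPs and 1.49, 3.13, 2.61 and 3.04 in UREΔ GMPs. GMPs were above LSKs without overlap, by 1.64 on the log2 scale in WT (SE 0.49, edgeR adjusted p = 0.0329) and by 1.77 in UREΔ (SE 0.43, edgeR adjusted p = 0.0163). The WT call was lost in 6 of 8 fits without a library and fell to 1.03 without WT GMP replicate 3 (edgeR adjusted p = 0.055), and the UREΔ call was lost in 2 of 8. It was lost in both genotypes within either pair of replicates. The genotype effects were -0.52 in LSKs (edgeR adjusted p = 0.698) and -0.35 in GMPs (0.791). *Cebpd* shares 562 exonic bases with *Spidr* on the opposite strand, and the libraries were not stranded, so that reads of this stretch could not be told apart.

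*Cebpb* was at 0.19 to 0.40 CPM in WT LSKs, 0.04 to 0.50 in UREΔ LSKs, 0.43 to 1.14 in WT GMPs and 0.39 to 1.35 in UREΔ GMPs, from 1 to 24 counts a library. GMPs were higher in 4 of 4 pairs of each genotype, 2.64-fold in WT and 3.08-fold in UREΔ by the means. Neither difference was called (unfiltered log2 fold change 1.395, edgeR adjusted p = 0.122, in WT, and 1.54, edgeR adjusted p = 0.146, in UREΔ), and no difference between genotypes was detected at these counts (0.06 in LSKs, unfiltered, and 0.26 in GMPs). *Cebpb* shares 20.7% of its exonic bases with *Tmem189* on the opposite strand.

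*Cebpg* showed no group pattern. It was at 11.4, 87.3, 49.1 and 19.6 CPM in WT LSKs, 12.6, 69.8, 45.1 and 13.5 in UREΔ LSKs, 12.6, 74.4, 63.4 and 20.1 in WT GMPs and 12.4, 85.5, 40.5 and 13.4 in UREΔ GMPs. Replicates 2 and 3 were above replicates 1 and 4 in every group and over all 16 libraries, 4.45-fold by the means, which 5.63% of 15935 genes showed in one direction or the other. Groups took up 1.18% of the variance of its log2 CPM, and its 4 group means were between 35.2 and 42.6 CPM. The log2 fold changes were -0.27 and -0.20 between genotypes and 0.01 and 0.07 between cell types, with SEs of 0.71 to 0.73 (edgeR adjusted p = 0.927 to 0.991). With the replicate number as a block, *Cebpg* was not called in any of the 4 comparisons.

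Per kilobase of exon, the C/EBP family was made up differently in the 2 cell types. This scale corrects for gene length and not for base content. G and C made up 43.3% of the longest coding transcript of *Cebpg*, against 51.6 to 67.2% for the other C/EBP genes. The part of base content in the order of the genes was not tested. In WT LSKs *Cebpg* had the largest share on this scale, at 63.5% of the summed C/EBP level (46.0 to 84.9% over libraries), before *Cebpa* at 16.2% and *Cebpe* at 14.8%. In WT GMPs *Cebpe* held 77.6% (67.4 to 87.9%), *Cebpg* 10.9% and *Cebpa* 9.75%. *Cebpb* and *Cebpd* together stayed below 10% in every library.

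In UREΔ LSKs the share of *Cebpa* was 6.39% ± 3.67 (SD, n = 4), against 16.2% ± 5.43 in WT, lower in 4 of 4 pairs and without overlap (p = 0.0286 in a two-sided exact permutation test, which cannot go lower with 4 libraries a group, and 0.0381 adjusted over 4 tests). The share of *Cebpe* was 29.2% ± 17.7 there against 14.8% ± 12.1, higher in 4 of 4 pairs with overlap. In GMPs the share of *Cebpa* was 8.18% ± 3.32 in UREΔ and 9.75% ± 3.02 in WT, lower in 4 of 4 pairs with wide overlap (exact two-sided permutation test p = 0.514, n = 4 per group). These shares contain *Cebpg* and so move with the replicate number, from 38.4 to 52.3% of *Cebpg* in LSK replicates 1 and 4 to 71.0 to 84.9% in replicates 2 and 3. UREΔ LSK replicate 3 had the lowest *Cebpa* share, 0.915%, and without it the difference was -7.95 percentage points. The exact permutation p was 0.0571 without any single UREΔ LSK library (n = 3 against 4) and 0.0286 without any single WT LSK library.

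**Figure D3:**
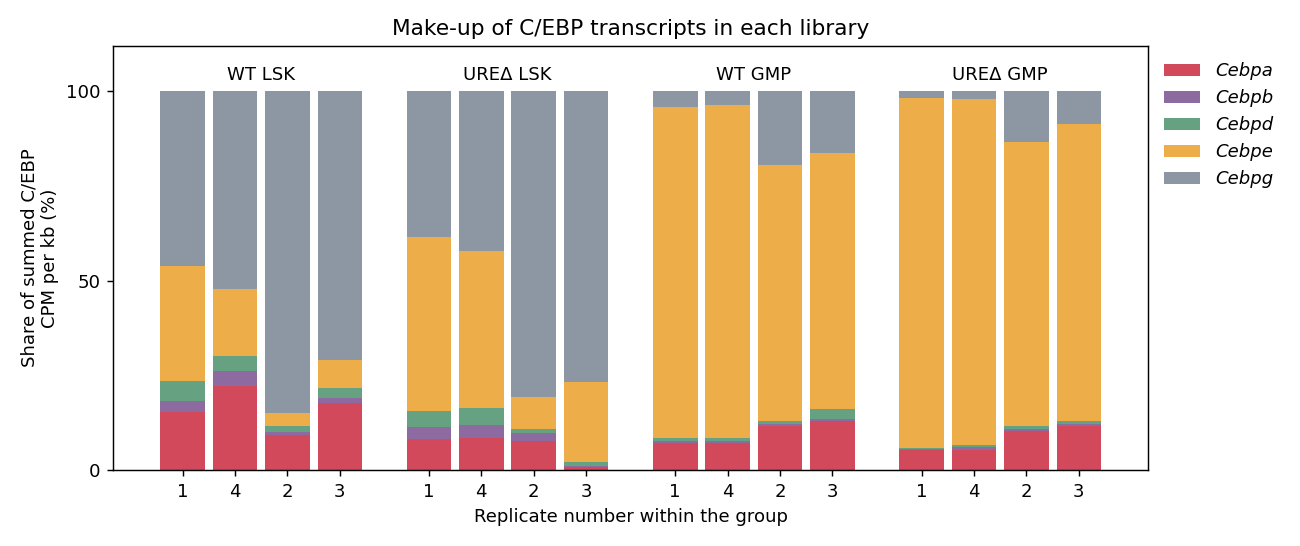
Share of each C/EBP gene in the summed C/EBP level (CPM per kilobase, percent) in each library, ordered as replicates 1, 4, 2 and 3 within a group. *Cebpe* fills 67.4% or more of every GMP bar, *Cebpg* is the widest part of most LSK bars, and the *Cebpa* part of the UREΔ LSK bars (0.915 to 8.64%) is below that of the WT LSK bars (9.17 to 22.2%).

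PU.1 and C/EBPα are known to compete and cooperate in the choice between monocytes and neutrophils, and the ratio of their RNAs was computed per kilobase. Each ratio includes a prior count of 2, which moves it most where counts are low, as in UREΔ LSK replicate 3. *Cebpa* RNA was 0.0151 to 0.0663 times that of *Spi1* in WT LSKs and 0.092 to 1.16 times in UREΔ LSKs. On the log2 scale the ratio was -4.95 ± 0.94 in WT and -1.19 ± 1.59 in UREΔ LSKs, a difference of 3.76 (exact two-sided permutation test p = 0.0286, adjusted 0.0381, n = 4 per group). In GMPs it was -2.89 ± 0.71 in WT and 0.11 ± 0.08 in UREΔ, a difference of 3.001 (exact two-sided permutation test p = 0.0286, adjusted 0.0381, n = 4 per group). The ratio was higher in UREΔ in 4 of 4 pairs in both compartments without overlap. *Spi1* is the gene that the deletion acts on, with log2 fold changes of -5.39 in LSKs and -2.73 in GMPs, beside -1.44 and 0.28 for *Cebpa*. Since the deletion lowers the denominator, a higher ratio in UREΔ was set by the design. The p-values of the ratio are therefore no test of a change in *Cebpa*. The 4 UREΔ GMP libraries lay between 0.99 and 1.12, near equal levels of both RNAs, although *Cebpa* itself ranged from 16.9 to 31.0 CPM in them.

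**Figure D4:**
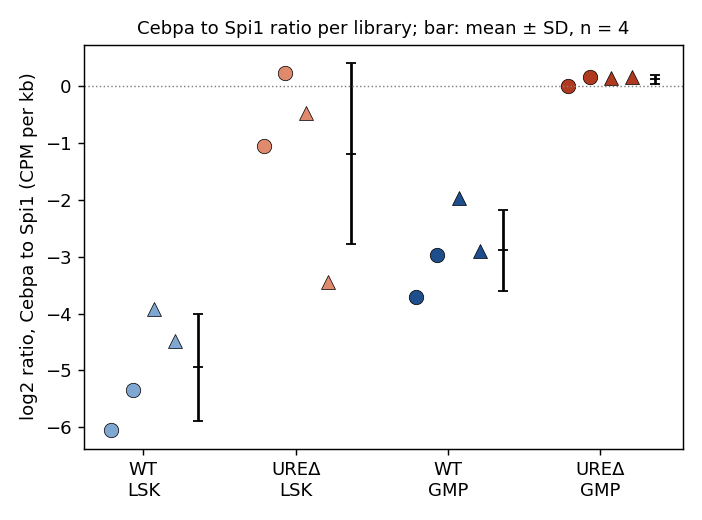
Log2 ratio of *Cebpa* to *Spi1* (both as CPM per kilobase, with a prior count of 2) in each library, circles for replicates 1 and 4 and triangles for replicates 2 and 3, with mean and SD of each group of 4. UREΔ GMPs lie within 0.2 of 0 (equal levels, dotted line), WT GMPs between -3.71 and -1.97, and UREΔ LSKs spread from -3.44 to 0.22.

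Target genes of C/EBPα moved in both directions with the genotype. Of all listed genes around the family other than *Spi1*, 11 of 60 tested were called between genotypes in LSKs and 14 of 63 in GMPs, where 6.14% and 8.30% of all genes were called. Within replicates 1 and 4, 7 and 9 of these kept their call, within replicates 2 and 3, 4 in each, and 7 in each once Y-linked transcripts were added as a covariate, while no direction reversed. Members and lists were chosen with earlier results of these data known, so that no share called among them tests an excess over all genes. Of 12 listed genes with known C/EBPα sites in myeloid progenitors, 1 was called higher and 5 lower in UREΔ LSKs by edgeR (7 of 12 called by DESeq2), where 2.38% of all genes were called higher and 3.76% lower, with a median log2 fold change of -1.07 against 0.00 for all genes. The 5 were the receptor genes *Il6ra* (-1.73, edgeR adjusted p = 0.00375) and *Csf1r* (-2.22, 0.0184), the protease gene *Prtn3* (-2.48, 0.00252), the lysozyme gene *Lyz2* (-1.49, 0.0227) and the LPS co-receptor gene *Cd14* (-4.21, 0.0141). The one called higher was *Elane*, the gene of neutrophil elastase, from 54.56 ± 20.36 to 123.8 ± 19.53 CPM (1.15, SE 0.28, edgeR adjusted p = 0.0416), which kept its call in 1 of 8 fits that left out a library, the one without WT LSK replicate 3. *Lyz2* lost its call in 6 of these 8 fits (-1.90 to -1.32) and *Csf1r* in 4 (-2.57 to -1.91). *Csf1r* is also a monocyte marker and *Mpo*, *Elane*, *Prtn3* and *Ctsg* are also GMP markers, and 3 of 6 monocyte markers were called lower in LSKs. The monocyte marker *Ly6c2* went the other way without a call, from 4.17 to 7.59 CPM (0.84, edgeR adjusted p = 0.447). The part of fewer monocyte-committed cells in these values was not tested.

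In GMPs 1 of the 12 was called higher and 3 lower by edgeR (7 of 12 called by DESeq2), where 4.67% and 3.63% of all genes were called, with a median of 0.48 against 0.01. *Klf5*, a zinc finger factor of granulopoiesis, rose from 1.21 ± 0.49 to 4.50 ± 2.01 CPM (1.87, SE 0.43, edgeR adjusted p = 0.0287), and *Cd14* (-4.22, 0.00174), *Csf1r* (-3.44, 0.0101) and the GM-CSF receptor gene *Csf2ra* (-1.95, 0.00275) fell. *Klf5* lost its call in 5 of 8 fits without a library (1.65 to 2.14). *Elane* was at 6063 ± 810.3 CPM in WT and 12470 ± 5391 in UREΔ GMPs (1.02, SE 0.30, edgeR adjusted p = 0.075), and the G-CSF receptor gene *Csf3r*, a classical C/EBPα target, at 151.2 ± 94.91 and 309.7 ± 133.7 (1.03, SE 0.55, edgeR adjusted p = 0.346). *Prtn3* differed between compartments in its response, with 0.12 in GMPs against -2.48 in LSKs (interaction 2.60, SE 0.49, edgeR adjusted p = 0.0179). From LSKs to GMPs, 7 of the 12 rose in WT and 6 in UREΔ (11.5% and 9.20% of all genes), and none was called lower by edgeR. DESeq2 called 7 of 12 in WT and 10 of 12 in UREΔ. The 4 of the 12 that are also GMP markers were among those that rose in each genotype. Of the GMP markers, 6 of 6 were called higher in GMPs of each genotype, so that these counts are not a measure apart from them. *Csf1r* and *Prtn3* share 15.1% and 9.2% of their exonic bases with genes on the opposite strand. Monocyte markers in GMPs were called lower for 4 of 6. *Ly6c2* of that list went the other way without a call, from 305.9 to 630.8 CPM (1.01, edgeR adjusted p = 0.287). The part of monocyte-committed cells was again not tested.

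Some late granule genes that depend on C/EBPε rose in UREΔ cells of both compartments. In LSKs 2 of 9 tested were called by edgeR, both higher (5 of 12 called by DESeq2), where 2.38% of all genes were called higher and 3.76% lower, with a median of 0.82 against 0.00 for all genes. *Ngp*, a granule protein gene, went from 26.53 ± 15.34 to 140.2 ± 39.8 CPM (2.37, SE 0.41, edgeR adjusted p = 0.00838), and *Cd177*, a neutrophil surface antigen gene, from 2.57 ± 1.58 to 13.59 ± 4.55 CPM (2.37, SE 0.48, edgeR adjusted p = 0.0186). In GMPs 3 of 10 were called higher and 2 lower by edgeR (7 of 12 called by DESeq2), where 4.67% and 3.63% of all genes were called, with a median of 2.16 against 0.01. *Ngp* (2.95, edgeR adjusted p = 0.00126) and *Cd177* (2.69, 0.010) were joined by *Lcn2*, the gene of the iron-withholding lipocalin, from 2.41 ± 0.74 to 33.93 ± 11.44 CPM (3.80, SE 0.34, edgeR adjusted p = 0.000396). The collagenase gene *Mmp8* (-3.04, 0.013) and the chitinase-like gene *Chil3* (-3.05, 0.0402) fell, and *Chil3* lost its call in 7 of 8 fits without a library (-3.95 to -2.69). *Camp* had the size of *Ngp* but wide spread (2.95, SE 0.83, edgeR adjusted p = 0.0617). *Lcn2* was the one whose response differed between compartments (0.39 in LSKs, interaction 3.40, SE 0.69, edgeR adjusted p = 0.0254). This list shares 5 of its 12 genes with the neutrophil markers, and is not a measure apart from them.

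**Figure D5:**
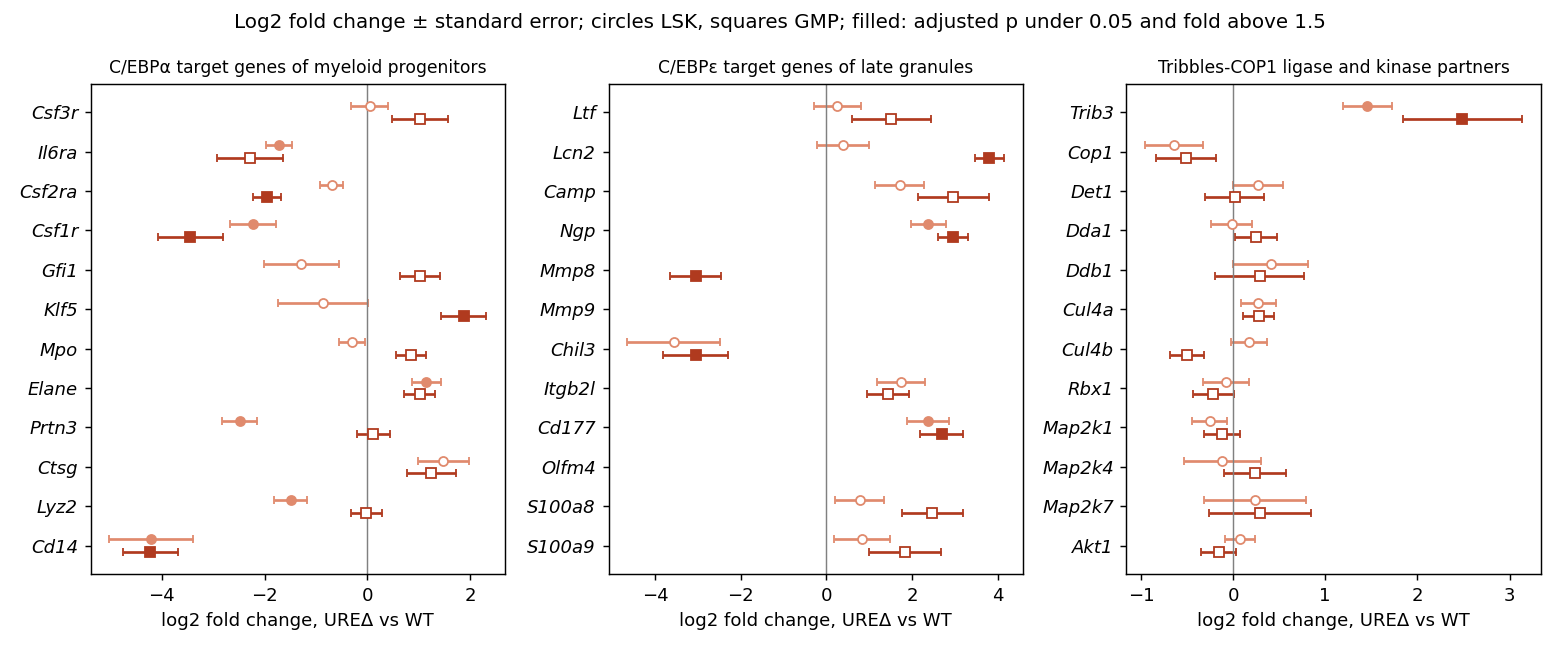
Log2 fold change of UREΔ against WT with its standard error for listed C/EBPα targets, C/EBPε targets and Tribbles partners, circles for LSKs and squares for GMPs, filled where called. *Trib3* is the filled gene of the partner list (1.46 and 2.49), *Ngp* and *Cd177* are called higher in both cell types, and *Csf1r* and *Cd14* lower in both. A gene without a mark was filtered out.

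Of 8 tested basic leucine zipper factors that can pair with C/EBPs or bind beside them, *Batf2*, an interferon-induced factor, was called lower in UREΔ LSKs (5.62 ± 1.28 to 1.89 ± 0.83 CPM, log2 fold change -1.60, edgeR adjusted p = 0.0496) and GMPs (1.401 ± 0.42 to 0.249 ± 0.073 CPM, -2.48, 0.00613), and no other was called between genotypes by edgeR. This was 1 of 8 called lower in each compartment (2 of 10 called by DESeq2 in each), where 3.76% of all genes in LSKs and 3.63% in GMPs were called lower. The *Batf2* call in LSKs was lost in 7 of 8 fits without a library (-1.82 to -1.34). *Jun* fell from LSKs to GMPs in WT (-2.09, edgeR adjusted p = 0.00442) and in UREΔ (-1.62, 0.0273, lost in 2 of 8 fits without a library). *Fos* rose (1.19, 0.0412, and 1.46, 0.0416), a call that was lost in 6 of 8 fits without a library in each genotype. *Batf2* fell too (-2.01, 0.00182, and -2.94, 0.00411), and *Atf4* rose in UREΔ (0.72, 0.0457), a call lost in 5 of 8 fits without a library. Of 9 factors known to bind the *Cebpa* enhancer, *Spi1*, on which the deletion acts, was the one called between genotypes. This was 1 of 9 called lower in each compartment, where 3.76% of all genes in LSKs and 3.63% in GMPs were called lower. From LSKs to GMPs 1 of the 9 was called higher and 1 lower in WT (11.5% and 15.8% of all genes), and 2 higher and 2 lower in UREΔ (9.20% and 12.6%). *Myb* rose by 0.80 in WT and 0.95 in UREΔ (edgeR adjusted p = 0.00893 and 0.0044), and *Lmo2* fell (-1.87, 0.0244, and -1.57, 0.0119), a call lost in 3 of 8 fits without a library in WT. In UREΔ *Tal1* fell (-1.18, 0.0103) and *Spi1* rose (2.78, 0.00183), whereas in WT *Tal1* was at -0.67 (0.129) and *Spi1* at 0.16 (0.747). Of the amino acid response genes that ATF4 and C/EBPγ share, 0 of 9 were called in LSKs by edgeR (1 at an unadjusted p under 0.05) and 0 of 11 by DESeq2, where 6.14% of all genes were called by edgeR, and 2 of 11 in GMPs, where 8.30% were. The 2 were *Asns*, the asparagine synthetase gene, from 50.11 ± 12.3 to 109.5 ± 28.41 CPM (1.12, edgeR adjusted p = 0.0212, lost in 3 of 8 fits without a library), and *Mthfd2*, of mitochondrial folate metabolism, from 46.63 ± 5.67 to 24.96 ± 4.06 CPM (-0.91, 0.0142). Of 7 cytokine and acute phase genes with C/EBP sites, 2 passed the filter in each compartment. By edgeR 1 of the 2 was called higher in each, where 2.38% of all genes in LSKs and 4.67% in GMPs were called higher. DESeq2 called 2 of 6 in LSKs and 2 of 7 in GMPs. The gene called by edgeR was *Hp*, the haptoglobin gene, which rose from 3.34 ± 0.70 to 14.37 ± 3.72 CPM in LSKs (2.08, edgeR adjusted p = 0.00309) and from 223.6 ± 26.54 to 726.8 ± 252.2 CPM in GMPs (1.68, 0.00345).

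The genes most like each member over the 16 libraries, by Pearson's r of log2 CPM among 8815 protein-coding genes with a mean of at least 3, were named for each. *Cebpe* was most like *Elane* (r = 0.988), *Pigk* (0.980) and *Trem3* (0.978), and *Cebpa* most like *Anxa3* (0.953), *Oat* (0.949) and *Atg101* (0.947). *Trib1* was most like *Fah* (0.969), *Art4* (0.961) and *Cpxm1* (0.958). *Cebpg* was most like *Zfp91* (0.977), *Kdm1a* (0.969) and *Dhx36* (0.968). The highest r was 0.905 (*Znhit1*) for *Cebpd*, 0.901 (*Depdc1a*) for *Cebpb* and 0.877 (*Fermt3*) for *Trib2*. The libraries fall into 4 groups and 2 sets of replicates, so that these values describe shared group and replicate levels. Between *Trib1* and *Spi1* r was -0.837 over the 16 libraries and -0.014 for deviations from the group means. Within groups, *Cebpg* went against *Cebpe* (-0.727) and *Trib2* (-0.705), *Cebpd* against *Trib2* (-0.724), and *Cebpa* went with *Cebpb* (0.652).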

How the data were processed

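RNA of up to 10 ng per sorted sample was made into unstranded low-input libraries without molecular identifiers. The authors quantified reads with Salmon against GRCm38 and deposited one estimated count per gene and library, as whole numbers. The annotation release is not given in the sources used here, and 54094 of 54347 gene IDs matched GENCODE M21. Counts were fitted per comparison with edgeR 4.0.16 (quasi-likelihood test, TMM factors, filterByExpr, Benjamini-Hochberg adjustment over all genes tested) in R 4.3.3. CPM used TMM library sizes over all 16 libraries, and log2 CPM a prior count of 2. Alternatives were DESeq2 1.42.0, RLE size factors, other filters, a joint fit, thinned counts, a Y-linked covariate, the replicate number as a block, each pair of replicates alone and each library left out. Same-numbered libraries deviated together from their group means (r at least 0.28 in every pair), so the numbers were taken to pair the libraries. UREΔ replicate 4 went more with WT replicate 1 (r = 0.43 in LSKs, 0.48 in GMPs) than with WT replicate 4 (0.30, 0.28), so that these values do not separate numbered pairs from the sets of replicates 1 and 4 and of 2 and 3. The interaction was fitted over all 16 libraries as independent samples. Ratios and shares were tested by exact permutation. No replicates agreed within sampling noise. Scripts were tested on simulated data. Named genes were *Spi1*, the 7 members, up to 4 called genes with the largest change per list and comparison with those needed to describe the list, and the 3 genes most like each member. Members and lists were chosen with earlier results of these data known.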

Additional observations from a re-analysis of the deposited data

Results flagged for a closer look

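In 40 groups of 4 libraries, 1 library stood far from the other 3 in 3 groups, where chance gives about 1 in 20, or 2. *Cebpe* was at 111.2 CPM in WT GMP replicate 4 and at 56.7 to 58.6 CPM in the other 3 WT GMP libraries. The log2 ratio of *Cebpa* to *Spi1* was -0.0085 in UREΔ GMP replicate 1 and 0.146 to 0.160 in the other 3, a gap of small size in a group of very narrow range. The *Cebpa* share of the C/EBP level was 0.915% in UREΔ LSK replicate 3 and 7.68 to 8.64% in the other 3, and this library held 6 counts of *Cebpa*.

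In 3 genes named in the report the effect of the genotype differed between GMPs and LSKs by the edgeR interaction test. The interaction log2 fold change was 2.64 for *Spi1* (adjusted p = 0.0218), 3.40 for *Lcn2* (0.0254) and 2.60 for *Prtn3* (0.0179). *Lcn2* lost the call in 5 of 16 fits that left out a library, *Spi1* in 1 and *Prtn3* in none. Within replicates 2 and 3 alone all 3 calls were lost (2.30, edgeR adjusted p = 0.681, for *Spi1*, 3.48, 0.812, for *Lcn2* and 2.13, 0.584, for *Prtn3*), and within replicates 1 and 4 that of *Lcn2* (3.18, 0.0594).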

How the results depend on the processing

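Of the 7 members, *Trib1*, *Cebpa* and *Cebpe* kept their direction in all 5 comparisons under every alternative run, and no setting removed the *Cebpa* or *Cebpe* calls between cell types. The 930 genes called in LSKs became 1638 with DESeq2, 1433 with the replicate block, 386 within replicates 2 and 3, 506 with the Y-linked covariate and 565 to 961 without a library. The 1148 called in GMPs became 1984, 2260, 108, 620 and 715 to 1176. Within replicates 2 and 3 the GMP against LSK counts were 2507 in WT and 810 in UREΔ, and without a library 3216 to 4257 and 2193 to 3369. The 194 interaction genes became 619 with DESeq2, 1047 with the replicate block, 2 within replicates 2 and 3 and 84 to 283 without a library (fewest without UREΔ GMP replicate 4). Called members went from 1 to 2 in LSKs with the joint fit and in GMPs with the replicate block, to 0 in GMPs within replicates 2 and 3, and from 4 to 2 between cell types there. Without a library they were 1 in LSKs, 1 to 2 in GMPs, 3 to 4 in each comparison of cell types and 0 for the interaction. Within replicates 2 and 3 *Trib1* missed the threshold between cell types (-2.60, adjusted p = 0.053, in WT; -1.86, 0.063, in UREΔ).

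Reversed signs were all in uncalled values. Within replicates 1 and 4 they were *Cebpd* in GMPs (0.12), *Spi1* between cell types in WT (-0.0027), *Cebpg* between cell types in UREΔ (-0.00703) and *Cebpg* for the interaction (-0.096). Within replicates 2 and 3 they were *Trib2* between cell types in UREΔ (-0.50) and for the interaction (-0.72). With the replicate block they were *Cebpg* between cell types in UREΔ (-0.014) and for the interaction (-0.052) and *Trib2* for the interaction (-0.053). The Y-linked covariate reversed *Cebpb* in GMPs (-0.33), and the stricter filter *Cebpg* between cell types in WT (-0.011). Leaving out a library, *Cebpg* ranged over -0.82 to 0.37 (LSK), -0.96 to 0.19 (GMP), -0.31 to 0.67 (cell types, WT), -0.68 to 0.66 (UREΔ) and -0.71 to 0.66 (interaction), *Cebpb* over -0.056 to 0.57 (GMP) and -0.15 to 0.65 (interaction), *Cebpd* over -0.59 to 0.31 (GMP) and -0.10 to 0.80 (interaction), *Trib2* over -0.33 to 0.59 (interaction) and *Spi1* over -0.034 to 0.39 (cell types, WT). The cause was not tested.

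With paired sign flips, the replicate block for ratios and shares, the smallest possible p is 0.125, and with a pair of replicates a group 0.333. The *Cebpa* to *Spi1* differences were 3.76 in LSKs (5.27 within replicates 1 and 4, 2.24 within 2 and 3, 3.29 to 4.51 without a library, with an exact permutation p of 0.0571 in the 4 of 8 fits that left out a WT LSK library) and 3.001 in GMPs (3.41, 2.59 and 2.73 to 3.31). The *Cebpa* share in LSKs differed by -9.77 percentage points (-10.4, -9.19 and -12.1 to -7.76, with p = 0.0571 in the 4 of 8 exact tests that left out a UREΔ LSK library). The prior count of 2 tried for the shares was chosen after seeing the data and changed no call. The block changed no other call among members. *Cebpb* rested on 1 to 24 counts a library.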
